A study of Mus musculus with 24 samples.

Results

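Haematopoietic stem cells (HSCs) carry RNA of genes that are best known from megakaryocytes and platelets, and 7 of these genes are described here in single mouse HSCs: Vwf, Gp1bb, Gp9, Itga2b, Pf4, Cd9 and Fli1. They were chosen by symbol, as the entries of the deposited table whose name holds one of the 7, and they make up 7 of its 27297 gene entries. All 7 were found. Vwf, Gp9, Pf4, Cd9 and Fli1 have an entry of their own. Itga2b stands under an entry with its synonym GPalpha IIb, and Gp1bb shares an entry with its neighbour Sept5 (also named Cdcrel-1), so that UMIs of Gp1bb and Sept5 cannot be told apart and every Gp1bb value is uncertain in that respect.

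The cells were bone marrow stem cells of the mouse reporter strain -60/DR5-TA-RA-CFP, in which cyan fluorescent protein (CFP) reports retinoic acid signalling. They were sorted as LSK cells (no lineage markers, with Sca-1 and Kit on the surface) with CD150 and without CD48, and they were index sorted with mixed CFP status, so that the cytometer's reading of each cell was kept with its well. The CFP-bright, the CFP-dim, the APC-high and the APC-low cells compared below are all cells of this strain, with no treatment stated, and age and sex were not used. The labels list 8 single-cell batches, and the table does not say which well belongs to which batch. The index record names 4 sort plates (2, 3, 4 and 5), which serve here as 4 technical replicates of a pooled collection, so errors and p-values measure the spread between plates and none of the spread between mice. Under a stricter reading the table is 1 sample without a test, and the levels stand under either reading.

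Megakaryocytes are large polyploid marrow cells that shed platelets. Platelets stick to injured vessel walls through von Willebrand factor and its receptor, a complex built from the glycoproteins GPIb and GPIX, and they bind each other through the integrin that contains the subunit encoded by Itga2b. In mice, HSCs marked by a Vwf reporter are known to give rise readily to platelets, and RNA of platelet genes is a known feature of some phenotypic HSCs.

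Fli1 encodes a transcription factor of the ETS family, which is known to bind promoters of platelet glycoprotein genes. The promoter windows of 3 members are shown for that reason, taken from RefSeq (GRCm38.p6) and running from 250 bases before to 50 bases after the annotated start, with 5′ to 3′ in the direction of the gene. Of the 7 members, 5 had a window in the table. Capitals mark each match on either strand to an ETS-type word (AGGAAG or CGGAAG, or their reverse complements) and to a GATA-type word (AGATAA or TGATAA, or their reverse complements), and no match overlaps another. The first window is Pf4, at chr5:90772185-90772484 on the plus strand.
Pf4: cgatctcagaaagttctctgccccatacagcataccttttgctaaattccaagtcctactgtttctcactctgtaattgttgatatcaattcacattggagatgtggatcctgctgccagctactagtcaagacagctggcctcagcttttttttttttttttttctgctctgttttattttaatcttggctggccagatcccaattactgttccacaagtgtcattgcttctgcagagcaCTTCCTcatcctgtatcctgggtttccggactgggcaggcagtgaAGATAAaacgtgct
The next is Itga2b, at chr11:102469834-102470133 on the minus strand.
Itga2b: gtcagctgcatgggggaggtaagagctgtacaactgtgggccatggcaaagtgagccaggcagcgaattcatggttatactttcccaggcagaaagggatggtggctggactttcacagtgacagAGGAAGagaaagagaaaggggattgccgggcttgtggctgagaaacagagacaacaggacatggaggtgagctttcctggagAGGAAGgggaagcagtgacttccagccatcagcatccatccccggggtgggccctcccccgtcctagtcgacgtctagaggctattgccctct
The last is Gp9, at chr6:87777820-87778119 on the plus strand. This window lies inside the RefSeq span of Gp9 (87776131 to 87779786), so its start is downstream of the first base of the span.
Gp9: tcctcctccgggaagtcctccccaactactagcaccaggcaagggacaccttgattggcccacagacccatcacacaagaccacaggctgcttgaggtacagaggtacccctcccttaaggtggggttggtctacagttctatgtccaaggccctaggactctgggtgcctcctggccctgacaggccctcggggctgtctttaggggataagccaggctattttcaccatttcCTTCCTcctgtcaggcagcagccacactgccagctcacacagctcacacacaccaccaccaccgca
The Pf4 window holds 1 ETS-type and 1 GATA-type match, the Itga2b window 2 and 0, and the Gp9 window 1 and 0. Of all 32851 windows in the table, 46.5% hold at least 1 ETS-type match and 18.6% at least 1 GATA-type match, so such matches are common. They describe letters only, and no binding was measured.

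The index record covers 1430 cells with 511 to 6026 UMIs (unique molecular identifiers, which count captured RNA molecules) and a median of 1265. Plate totals ran from 483734 to 563679 UMIs. The sort markers matched the profile in part: Kit had 671 UMIs, Slamf1, which encodes CD150, had 41, Ly6a, which encodes Sca-1, had 90, and Cd48 had 1. A further 106 wells had no index record and a median of 224 UMIs, and they give a rough background.

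RNA of each member was caught in a minority of HSCs. Vwf had 168 UMIs in 131 of the 1430 cells (9.16%, exact 95% binomial interval 7.72 to 10.8%), Gp1bb 98 UMIs in 73 cells (5.10%, 4.02 to 6.38%) and Gp9 297 UMIs in 242 cells (16.9%, 15 to 19%). Itga2b had 139 UMIs in 107 cells (7.48%, 6.17 to 8.97%) and Pf4 270 UMIs in 132 cells (9.23%, 7.78 to 10.9%). Cd9, which encodes a tetraspanin found on HSCs as well as on platelets, had 457 UMIs in 352 cells (24.6%, 22.4 to 26.9%), and Fli1 had 243 UMIs in 191 cells (13.4%, 11.6 to 15.2%). Intervals here and below cover counting error only. In the wells without a record the 7 genes had 11 UMIs together, led by 4 UMIs of Vwf in 3 wells (2.83%, 0.588 to 8.05%), while Cd9 and Gp1bb had 0 UMIs in 106 wells. The recorded shares of Gp9, Cd9 and Fli1 lay above the upper ends of their intervals in those wells (5.14%, 3.42% and 5.14%), and so did those of Vwf, Itga2b, Pf4 and Gp1bb (8.05%, 6.65%, 5.14% and 3.42%), at median depths of 1265 UMIs in recorded and 224 in unrecorded wells, a gap that lowers the shares of the shallower wells. Per UMI the order was not the same. Vwf averaged 79.2 CPM (its UMIs per 1000000 UMIs) in recorded cells, against 160 CPM in the unrecorded wells (exact Poisson interval 43.5 to 409), Itga2b 66.4 and 79.8 CPM (9.66 to 288), and Gp9 140 and 120 CPM (24.7 to 350), and these 3 recorded levels lay within the intervals of the unrecorded wells.

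When the 1025 cells with at least 1000 UMIs were thinned to 1000 UMIs each, which left out 405 shallower cells, the shares averaged 6.92 ± 0.73% for Vwf, 3.20 ± 0.70% for Gp1bb, 12.2 ± 0.7% for Gp9, 5.27 ± 0.76% for Itga2b, 7.05 ± 2.79% for Pf4, 17.5 ± 6.5% for Cd9 and 11 ± 2% for Fli1 (mean ± SD over 4 plates). The spread between plates was widest for Cd9 and Pf4. Levels below are in CPM over the cells of a plate. Cd9 had 80.6, 262, 236 and 271 CPM on plates 2, 3, 4 and 5, so plate 2 stood far below the others, which averaged 257 ± 18 CPM. Pf4, a chemokine of platelet granules, had 45.5, 93.4, 161 and 202 CPM. Fli1 had 165, 77.0, 103 and 121 CPM, with plate 2 the highest. Gp9 moved least, between 128 and 156 CPM, and Itga2b (56.8 to 82.7 CPM), Vwf (62.0 to 97.6 CPM) and Gp1bb (36.8 to 64.1 CPM) lay between. Plates also differed in which map groups their cells fell into, described below, and the part of this in the plate levels was not tested.

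The Pf4 signal was held by few cells. One cell of plate 5 had 56 Pf4 UMIs, and the next had 20, 15 and 9, so that 4 cells held 100 of the 270 UMIs. The 4 cells had 1179 to 4440 UMIs in all, and Pf4 made up 0.358 to 1.27% of them. In these cells Ppbp, Tubb1, Gp6, Clec1b and Treml1, genes of mature platelets, had 0 UMIs. Each of these genes had 0 to 24 UMIs in all 1430 cells, so 0 in 4 cells says little. Gp5 had 5 UMIs in 3 of the cells. From the most to the least Pf4 UMIs, the 4 cells had 2, 2, 3 and 0 UMIs of Gp1bb. They had 1, 1, 0 and 3 of Vwf, 1, 1, 0 and 1 of Itga2b, and none of Fli1. Gp9 had 1, 0, 0 and 1, and Cd9 had 2, 1, 0 and 2. No other member was as concentrated: the highest cell held 20.7% of the UMIs of Pf4 and 1.31 to 5.10% of those of the other 6 genes. The fold changes, map levels and shared cells of Pf4 are therefore given with and without these 4 cells, a choice made after seeing the data.

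The question of whether the genes follow the APC channel of the sort was asked by ranking the cells of a plate by APC value and comparing the top 20% (APC high, 288 cells) with the bottom 20% (APC low, 285 cells). The record names the dye and no antibody, so the protein behind the channel is not known here. Vwf was far higher in APC-high than in APC-low HSCs, and no other gene in the table had a lower p-value. It had 181, 137, 181 and 353 CPM in APC-high cells of plates 2, 3, 4 and 5, against 32.3, 37.1, 0 and 38.5 CPM in APC-low cells. All 4 APC-high values lay above all 4 APC-low values. The means were 213 ± 96 and 27.0 ± 18.2 CPM (SD, n = 4 plates), from 95 and 11 UMIs. In the fit over all genes (edgeR quasi-likelihood test, plate as a block, Benjamini-Hochberg adjustment), the log2 fold change was 2.94 ± 0.43 (SE) with an adjusted p of 8.9e-06. It ranked first of the 3462 genes tested both by p and by fold. Without the plate block the fold change of Vwf was 2.92 and its edgeR adjusted p 0.11, and 0 genes were called.

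**Figure D1:**
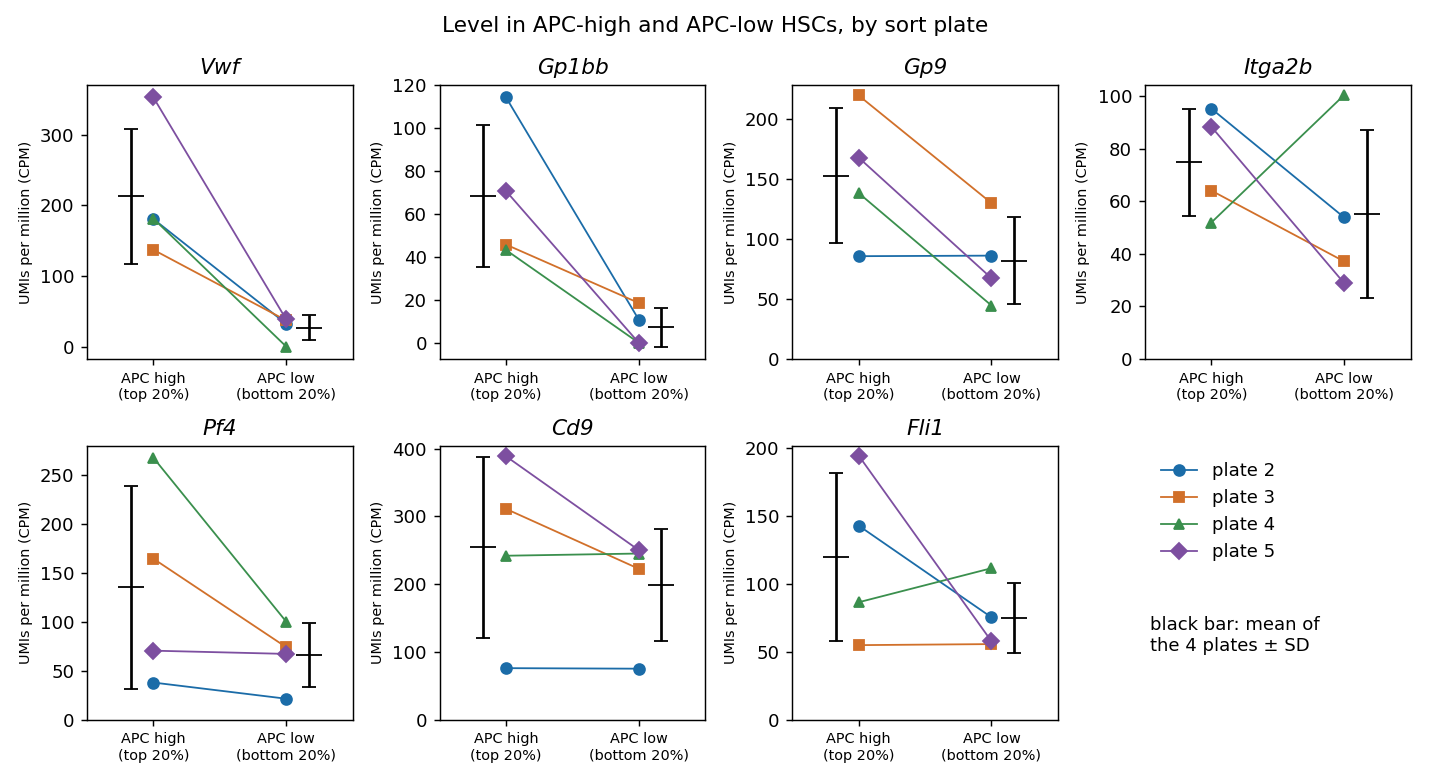
Level of each of the 7 genes in CPM (vertical axis) in APC-high and APC-low HSCs, with 1 line per sort plate and the mean ± SD of the 4 plates in black. Vwf and Gp1bb are the genes whose APC-high plates all lie above all their APC-low plates, with means of 213 and 27.0 CPM for Vwf.

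Of the 7 members, 6 passed the filter on low counts in the APC comparison and 1, Vwf, passed the test, where 0.635% of all tested genes passed it (22 genes, of which 10, or 0.289% of those tested, were higher in APC-high cells). Gp1bb did not pass the filter. Unadjusted edgeR p-values were 2.6e-09 for Vwf, 0.0073 for Gp9 and, with all cells, 0.011 for Pf4. They were 0.059 for Fli1, 0.095 for Cd9 and 0.29 for Itga2b. Of all tested genes, 9.19% had an unadjusted p under 0.05. Gp1bb and Gp9 encode subunits of the receptor for von Willebrand factor. Gp1bb had 114, 45.7, 43.2 and 70.6 CPM in APC-high cells of the 4 plates, against 10.8, 18.6, 0 and 0 CPM in APC-low cells. These values do not overlap either, on 30 and 3 UMIs, and the ratio of the pooled levels was 8.90 with an exact 95% counting interval of 2.77 to 45.6. Without the filter, the edgeR fold change of Gp1bb was 3.06 ± 0.68 on the log2 scale with an adjusted p of 0.0072. In the thinned cells, 6 of 206 APC-high cells (2.91%, exact 95% interval 1.08 to 6.23%) had a Gp1bb UMI. So did 1 of 200 APC-low cells (0.5%, 0.013 to 2.75%), and these intervals overlapped. The share was 4.20% (26 of 619) in the cells between these fractions, above the APC-high share. Among all tested genes, which do not include Gp1bb, the plate values did not overlap in 2.69%, and in 1.24% with the APC-high cells above.

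Gp9 had 85.7, 220, 138 and 168 CPM in APC-high cells, against 86.1, 130, 44.6 and 67.3 CPM in APC-low cells. Plates 3, 4 and 5 were higher in APC-high cells and plate 2 had nearly equal values. The fold change was 0.88 ± 0.32 (log2, SE), with an edgeR adjusted p of 0.30. Pf4 averaged 135 ± 103 CPM in APC-high and 65.8 ± 32.8 CPM in APC-low cells, with a log2 fold change of 1.04 ± 0.40 and an edgeR adjusted p of 0.32. The APC-high fraction held 2 of the 4 Pf4-rich cells and the APC-low fraction 0. Without the 4 cells Pf4 averaged 72.7 ± 25.6 CPM in APC-high and 65.8 ± 32.8 CPM in APC-low cells, the plate values overlapped, and the fold change was 0.15 with an edgeR adjusted p of 0.96. With all cells Pf4 changed sign, to -0.16, when the 20% of cells with the largest share of cell-cycle UMIs were left out. Itga2b averaged 74.8 ± 20.3 CPM in APC-high and 55.0 ± 31.9 CPM in APC-low cells, and plate 4 went the other way from the other 3. Cd9 averaged 254 ± 133 CPM in APC-high and 198 ± 83 CPM in APC-low cells, and Fli1 averaged 120 ± 62 and 75 ± 26 CPM. Their log2 fold changes were 0.48 ± 0.45 for Itga2b, 0.37 ± 0.22 for Cd9 and 0.68 ± 0.35 for Fli1, with edgeR adjusted p-values of 0.84, 0.62 and 0.56. The 95% intervals of these fold changes reached 1.35, 0.79 and 1.38, so differences up to that size could not be told from none at this depth.

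Vwf was concentrated at the top of the channel. In deciles of the cells of a plate from low to high APC, the share of cells with a Vwf UMI ran between 2.08 and 9.09% over the first 8 deciles, was 14% in decile 9 (20 of 143 cells) and 30.3% in decile 10 (44 of 145 cells). The level was 122 ± 54 CPM in decile 9 and 288 ± 195 CPM in decile 10, and at most 70.9 CPM below (mean ± SD, n = 4 plates). Among cells with at least 2 Vwf UMIs, of which there were 26, the median APC rank was 93.8%. Gp1bb had another shape. Its level was 9.56 and 4.72 CPM in deciles 1 and 2, and between 28.9 and 70.3 CPM in the other 8. Slamf1 had 20 of its 41 UMIs in decile 10 of APC and 1 to 4 in each other decile. Deciles of further genes were not computed. Over the whole fractions Slamf1 had 22 UMIs in APC-high and 3 in APC-low cells. The other sort markers did not share this skew, with 138 and 123 UMIs for Kit, 13 and 18 for Ly6a, and 0 and 1 for Cd48.

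**Figure D2:**
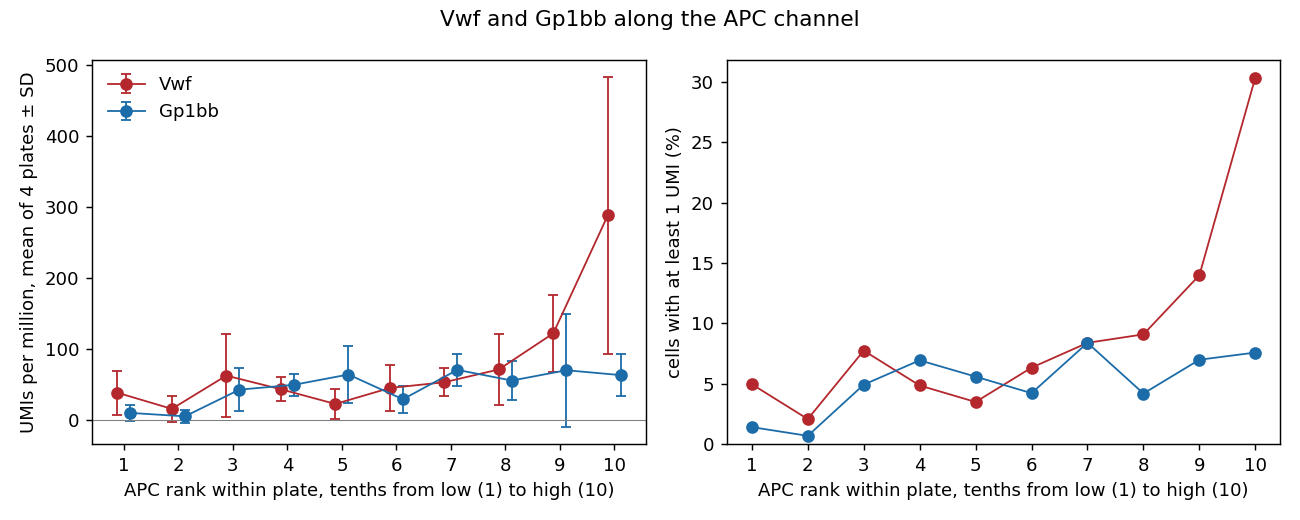
Vwf and Gp1bb along the APC channel, in deciles of the cells of each plate from low (1) to high (10). The left panel gives CPM (mean of 4 plates ± SD) and the right panel the share of cells with at least 1 UMI, which reaches 30.3% for Vwf in decile 10.

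The APC fractions were of similar depth, with a median of 1287 UMIs per cell in APC-high and 1220 in APC-low cells (means of the plate medians). S-phase and G2/M list genes made up 0.97 and 0.87% of UMIs. The mean CFP rank was 62.3% in APC-high and 43.3% in APC-low cells. In fractions matched on UMIs per cell, Vwf had a log2 fold change of 3.27 with an edgeR adjusted p of 2.3e-05. After thinning to 1000 UMIs, 34 of 206 APC-high cells (16.5%, exact 95% interval 11.7 to 22.3%) and 6 of 200 APC-low cells (3.00%, 1.11 to 6.42%) had a Vwf UMI, with 82 and 85 shallower cells left out. Unthinned, the shares were 22.2% and 3.51%, and the APC-low share lay within the interval of the wells without a record.

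Vwf is also a gene of endothelial cells, which line blood vessels. Of 10 endothelial marker genes, all 10 were in the table. In the 1430 cells Cdh5 was at 0 UMIs, Flt1 had 2, Cldn5 3, Kdr 5, Plvap 6, Emcn and Eng 23 each, Pecam1 124, Tie1 178 and Egfl7 406. Their summed level ran from 372 to 476 CPM in APC-high and from 245 to 355 CPM in APC-low cells, without overlap. Tie1 averaged 114 ± 26 CPM in APC-high and 56.7 ± 43.4 CPM in APC-low cells, Egfl7 216 ± 65 and 187 ± 48 CPM, and Eng had 8 and 1 UMIs. Mast cell and basophil markers had 1 UMI in all. Mature lymphoid markers summed to 85.7 to 106 CPM in APC-high and 43.1 to 167 CPM in APC-low cells. Neutrophil and monocyte markers ran from 1028 to 1272 CPM in APC-high and from 1428 to 1828 CPM in APC-low cells, and erythroid markers from 415 to 3559 and from 592 to 3811 CPM. The part of these lists in the Vwf result was not tested.

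The Vwf difference was seen in each stratum examined, as a description chosen after the contrast was known. Among CFP-bright cells Vwf had 240 CPM in APC-high cells and 42.7 CPM in the other cells (47 and 18 UMIs), and the ratio was 5.62 with a counting interval of 3.20 to 10.3. Among CFP-dim cells it had 286 and 40.7 CPM (7 and 12 UMIs, ratio 7.03, 2.34 to 19.4). In the cells with the larger share of cell-cycle UMIs it had 185 CPM in APC-high and 33.8 CPM in the other cells, and in those with the smaller share 255 and 58.0 CPM. In map groups, Vwf was higher in APC-high cells in 9 of 9 groups, with ratios from 2.06 to 14. The interval of the ratio lay above 1 in 5 of the 9. Group 4 gave 312 CPM in APC-high and 49.3 CPM in the other cells (26 and 18 UMIs). Gp1bb was set against the other 80% of cells in the same way. Among CFP-bright cells Gp1bb had 86.8 CPM in APC-high and 66.4 CPM in the other cells (ratio 1.31, 0.67 to 2.47), and among CFP-dim cells 0 and 9 UMIs. In the cells with the larger share of cell-cycle UMIs it had 88.9 and 54.3 CPM (ratio 1.64, 0.96 to 2.72). Gp1bb was higher in APC-high cells in 6 of the 8 map groups with a UMI of it, lower in groups 3 and 5, and its interval lay above 1 in 1 group, group 10, on 5 and 1 UMIs.

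**Figure D3:**
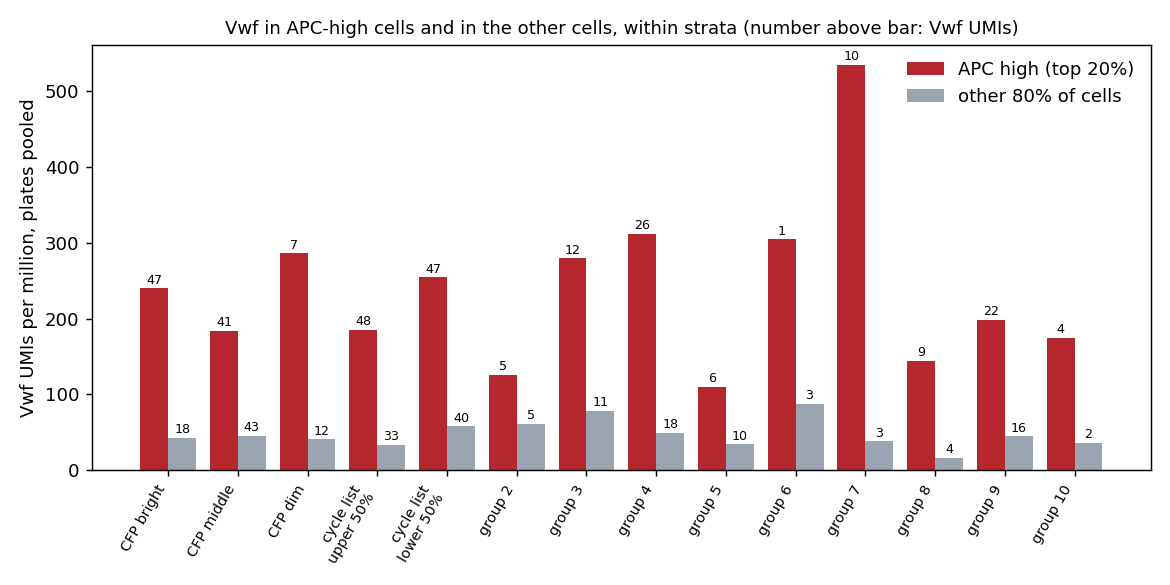
Vwf level (CPM, all plates pooled) in APC-high cells and in the other 80% of cells, within CFP fractions, within each 50% of cells by share of S and G2/M list UMIs, and within map groups 2 to 10. Numbers above bars are Vwf UMIs, and the APC-high bar is the taller in every pair, on as few as 1 UMI in group 6.

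Within the APC-high fraction, the other members were set side by side for the 64 cells with a Vwf UMI and the 224 without (median 1504 and 1280 UMIs). Gp1bb was caught in 12.5% of the cells with Vwf and 5.80% of those without, and Fli1 in 20.3 and 11.6%. Cd9 was caught in 31.2 and 26.8%, Pf4 in 12.5 and 8.93%, and Itga2b in 9.38 and 8.48%. Gp9 ran the other way, with 14.1% of the cells with Vwf and 20.5% of those without. These shares are not thinned and rest on 6 to 20 cells with Vwf, so they are given as a description.

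The CFP channel was split in the same way, into the 20% brightest (CFP bright, 288 cells) and the 20% dimmest (CFP dim, 285 cells) of each plate. The same 1430 cells were ranked by another value, and 98 of the CFP-bright and 25 of the CFP-dim cells were APC high. Of the 7 members, all 7 passed the filter on low counts and 0 passed the test, where 8.96% of the 4741 tested genes passed it (425 genes, of which 274, or 5.78% of those tested, were higher in CFP-bright cells). Gp1bb, Pf4 and Vwf, 3 of the 7, had an unadjusted p under 0.05, as did 21.3% of all tested genes, and DESeq2 also called 0 members. CFP-bright cells were deeper, with a median of 1829 UMIs per cell against 1091 in CFP-dim cells, and S and G2/M list genes made up 1.48 and 0.55% of their UMIs. Without the 20% of cells with the largest share of cell-cycle UMIs, the log2 fold change was 1.33 for Vwf and 1.23 for Pf4, with an edgeR adjusted p of 0.23 for both, against 0.79 and 0.62 with all cells. The Pf4-rich cells were not left out as a group from that fit. With only those 4 cells left out, Pf4 was at -0.14. In fractions matched on UMIs per cell, where 1607 genes were tested, Gp9 was at 0.84 with an adjusted p of 0.40, against 0.14 unmatched, Cd9 was at -0.29, and the other 5 members were not tested.

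Gp1bb had 95, 53.0, 62.9 and 81.9 CPM in CFP-bright cells of plates 2, 3, 4 and 5, against 24.9, 23.5, 52.4 and 13 CPM in CFP-dim cells. The 4 bright values lay above the 4 dim values, narrowly on plate 4, and 8.33% of tested genes had plate values that did not overlap, 5.93% with CFP-bright cells above. The log2 fold change was 1.36 ± 0.55 with an edgeR adjusted p of 0.11. With the brightest and dimmest 33.3% of cells it was 1.40 and the adjusted p was 0.040, and without the 4 Pf4-rich cells 1.83 and 0.040. Vwf had 87.7, 86.2, 88.0 and 152 CPM in CFP-bright cells, against 62.1, 70.4, 91.7 and 13 CPM in CFP-dim cells. The fold change of Vwf was 0.79 ± 0.39 (log2), with an edgeR adjusted p of 0.22, and it was 0.23 without plate 5.

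Pf4 had 58.5, 146, 214 and 392 CPM in CFP-bright cells, against 49.7, 70.4, 288 and 117 CPM in CFP-dim cells. Of the 4 Pf4-rich cells, 3 ranked in the top 2% of CFP and the other at 17.7%, in the dim fraction of plate 4. The log2 fold change was 0.62 ± 0.28 with an edgeR adjusted p of 0.16. It was 1.28 with an adjusted p of 0.016 without plate 4, and -0.14 without the 4 cells. Itga2b averaged 80.3 ± 19.2 CPM in CFP-bright and 56.8 ± 22.8 CPM in CFP-dim cells, Gp9 150 ± 30 and 134 ± 62 CPM, Fli1 112 ± 26 and 96.8 ± 43.8 CPM, and Cd9 198 ± 87 and 225 ± 95 CPM. Their log2 fold changes were 0.49 ± 0.43, 0.14 ± 0.29, 0.22 ± 0.33 and -0.19 ± 0.23, with edgeR adjusted p-values from 0.57 to 0.84. Thinned to 1000 UMIs, the share of cells with a UMI was 10.1% in CFP-bright and 5.03% in CFP-dim cells for Vwf, 5.06 and 2.52% for Gp1bb, and 16.0 and 18.9% for Cd9 (257 and 159 cells, with 31 and 126 left out). The exact intervals of these shares overlapped for all 7 genes.

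**Figure D4:**
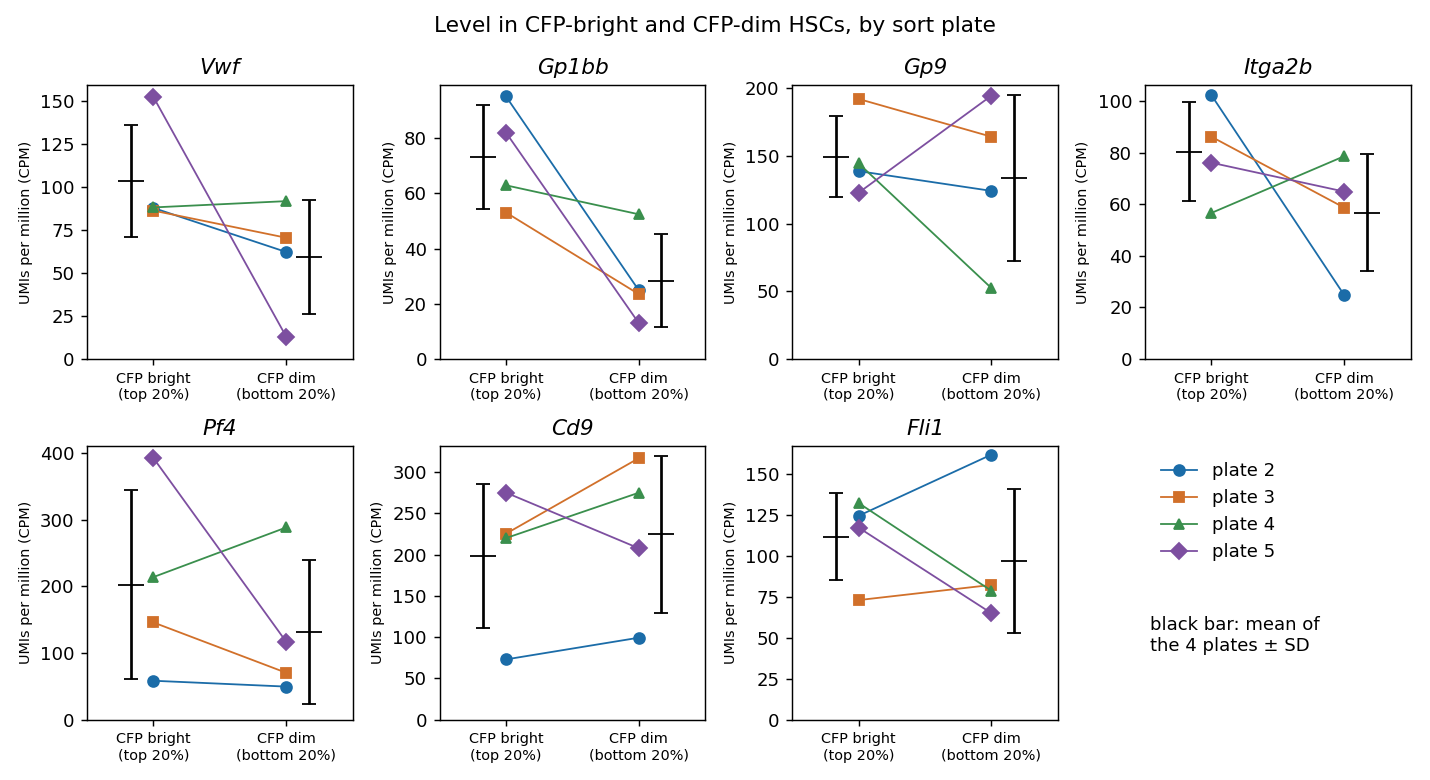
Level of each of the 7 genes in CPM (vertical axis) in CFP-bright and CFP-dim HSCs, with 1 line per sort plate and the mean ± SD of the 4 plates in black. The plates of Gp1bb do not overlap, while the lines of the other 6 genes run in both directions, for Vwf, Pf4 and Itga2b with plate 4 lower in CFP-bright cells.

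Other genes of megakaryocytes and platelets were taken from a list of 71 symbols, of which 69 had an entry and 5 (Gp6, P2ry12, F2rl2, Timp3 and Slc6a4) had 0 UMIs in the 1430 cells. Several genes of mature platelets were near 0, with 2 UMIs each for Ppbp, Tubb1 and Clec1b, 10 for Gp1ba and 24 for Treml1. Gp5, another subunit gene of the von Willebrand factor receptor, had 56 UMIs and Itgb3, whose product pairs with that of Itga2b, had 37. In the APC comparison, 27 list genes were tested, 1 (3.70%, beside 0.289% of all tested genes) was higher in APC-high cells and 0 were lower, with a median log2 fold change of 0.17 against -0.0045 over all tested genes. The called gene was Sdpr, which encodes a caveola-associated protein, with 88.9 ± 43.7 CPM in APC-high and 14.9 ± 12.5 CPM in APC-low cells (40 and 6 UMIs). Its log2 fold change was 2.48 ± 0.62 with an edgeR adjusted p of 0.026, and in 10 of 14 alternatives 0 list genes were called. Sdpr had an adjusted p of 0.14 without plate 2 and fell below the filter on low counts without plate 4 or without plate 5. Among the list genes with the most UMIs, Vamp8, Nfe2, Lyl1, Etv6, Gata2, Zfpm1, Cd63, Pdlim1, Itgb1, Runx1 and Tgfb1 were examined one by one, and 0 of them passed the test with APC, while 6 of the 27 list genes (22.2%) had an unadjusted p under 0.05, beside 9.19% of all tested genes. Log2 fold changes of these genes ran from -0.37 for Itgb1 to 0.48 for Zfpm1.

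In the CFP comparison, 32 list genes were tested, 1 was higher and 2 were lower in CFP-bright cells, which is 9.38% of the list, near the 8.96% of all tested genes. They had a median log2 fold change of -0.12 against -0.015 over all tested genes. Gfi1b, a transcriptional repressor needed for megakaryocyte and red cell formation, averaged 104 ± 35 CPM in CFP-bright and 205 ± 91 CPM in CFP-dim cells (log2 fold change -0.96 ± 0.27, edgeR adjusted p 0.0075). Runx1, a transcription factor of blood stem cells and megakaryocytes, averaged 231 ± 55 and 345 ± 31 CPM (-0.59 ± 0.19, edgeR adjusted p 0.035). Tgfb1, which encodes a growth factor stored in platelets, averaged 345 ± 57 CPM in CFP-bright and 210 ± 43 CPM in CFP-dim cells (0.72 ± 0.20, edgeR adjusted p 0.0084). Each of the 3 calls was lost when some plate was left out, with an edgeR adjusted p of 0.20 for Gfi1b without plate 2 and 0.096 without plate 4, 0.061 for Tgfb1 without plate 4, and 0.065 to 0.23 for Runx1 without plate 2, 3 or 5. With the most cycling 20% of cells left out, or with fractions matched on UMIs per cell, 0 of the list genes were called.

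The index record also gives each cell a whole number from 1 to 10 whose meaning is not stated. It may come from a clustering of these same cells, so the levels by map group are a description with no test, and group 1 with 10 cells was left out. Neighbouring groups in the order of levels had overlapping 95% Poisson intervals for all 7 genes. Vwf was at 134 CPM in group 7 and 125 CPM in group 3, and lowest at 41.8 CPM in group 8 and 46.0 CPM in group 5, over the pooled cells. As means of the 4 plates the order within these pairs turned, with 103 ± 85 CPM in group 7, 138 ± 75 CPM in group 3, 45.0 ± 20.3 CPM in group 8 and 41.5 ± 18.5 CPM in group 5. For Vwf 2 of 36 pairs of groups had intervals that did not overlap. The count was 11 for Pf4 with all cells, 2 each for Gp1bb and Cd9, and 1 for Itga2b. Without the 4 Pf4-rich cells the Pf4 intervals of all groups overlapped one another. The share over all genes was not computed, so whether these counts are unusual is not known. Group 9, which had a median of 2341 UMIs per cell and a mean CFP rank of 75%, had the highest level of Itga2b (94.4 CPM). Itga2b was lowest in group 3 (21.8 CPM on 4 UMIs). Gp1bb was highest in groups 9 and 10, at 77.2 CPM in both, on 36 and 6 UMIs. Gp1bb had 0 UMIs in the 33 cells of group 6, with an interval that reaches 98.4 CPM.

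Cd9 was highest in group 10 (347 CPM) and group 3 (305 CPM), and Gp9 and Fli1 had no pair of groups with separate intervals. Pf4 had 335 CPM in group 10, 261 CPM in group 8 and 173 CPM in group 2, against 66.1 to 160 CPM in the other groups. Groups 2, 8, 9 and 10 each held 1 of the 4 Pf4-rich cells. Without these cells Pf4 was at 80.5 CPM in group 10, 81.6 CPM in group 8 and 50.0 CPM in group 2, and its levels over the 9 groups ran from 50.0 to 160 CPM. Plates were unevenly spread over the groups: 52 of the 86 cells of group 7 came from plate 2, where Cd9 was low.

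**Figure D5:**
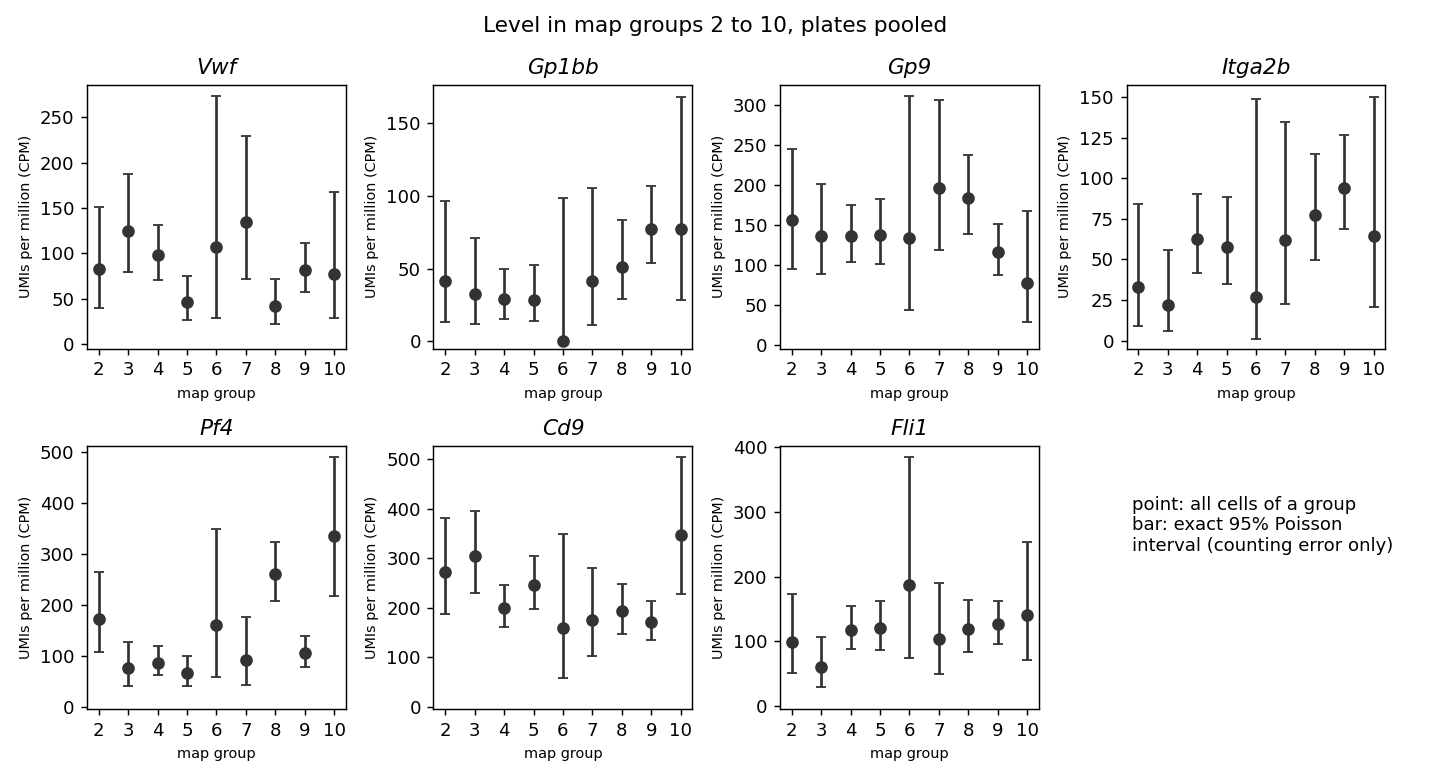
Level of each of the 7 genes in map groups 2 to 10 (CPM, all plates pooled), with exact 95% Poisson intervals that cover counting error only. The intervals of neighbouring levels overlap for each gene, and the high Pf4 values of groups 8 and 10 include Pf4-rich cells.

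The genes whose levels over the 9 map groups were most like those of the members were ranked by Pearson's r of log2(CPM + 10), among 701 genes with at least 500 UMIs and for members with at least 200. For Cd9 they were Sdcbp (r = 0.92), Dazap2, Snhg6, Lamp1 and H2-D1 (0.81). For Gp9 they were Eif3d (0.92), Aldoa, Atp6v1f, Rps15 and Taldo1 (0.84), and for Fli1 Fam96a (0.93), Ndufa8, Grinl1a, Nucb1 and Chd4 (0.84). Pf4 was matched less closely, by Selplg (0.72), Hn1, Nap1l1, Vars and Psmc3 (0.69), and the 7 genes summed by Hn1 (0.84), Clta, Rab2a, Ubb and Apobec3 (0.76). The levels of Pf4 and of the sum include the 4 Pf4-rich cells, which set the high Pf4 values of groups 10, 8 and 2. Matches without these cells were not computed. The 9 points share their cells and depth, and with 701 candidates high values of r arise readily, so the names are a description.

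Most HSCs with a member UMI had only 1 member. In the 1025 thinned cells, 535 had no member, 364 had 1, 96 had 2, 28 had 3, 1 had 4 and 1 had 5. In all 1430 cells without thinning, 28 cells had 4 or more members. These were deep cells, with a median of 3101 UMIs and a range from 1215 to 5821, and 19 of them were CFP bright and 8 APC high. Each member was found in 14 to 21 of the 28.

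For a pair of genes, the number of thinned cells with both was set against the number expected from the product of their shares within each plate. Summed over the 21 pairs of members, 196 joint detections were seen and 168 expected, where a cell counts once for each pair it holds. The median ratio of seen to expected was 1.16, against 1.00 over the pairs of 3809 genes caught in at least 5% of cells, and 11 of the 21 pairs were above 1, against 48.9% of all pairs. Over all pairs the 5th and 95th percentiles of the ratio were 0.54 and 1.49. Gp1bb, caught in 3.20% of the thinned cells, lies below that limit of 5%, so its pairs have no like set beside them. The highest ratios were those of Pf4 with Itga2b (10 cells seen, 3.64 expected), Pf4 with Gp1bb (6 and 2.22) and Gp9 with Gp1bb (8 and 4.04). Pf4 with Gp9 (14 and 8.70) and Itga2b with Gp9 (12 and 6.61) were also above 1. Without the 4 Pf4-rich cells, Pf4 met Itga2b in 9 cells with 3.39 expected, Gp1bb in 4 with 1.93 expected and Gp9 in 14 with 8.26 expected, and the median ratio was 1.16. Vwf met Fli1 in 12 cells, with 7.92 expected, and Gp1bb, a subunit of its receptor, in 2, with 2.26 expected. These pairs also varied with depth. Without thinning, Vwf met Gp1bb in 13 cells (6.84 expected) and Fli1 in 28 (17.5), and Pf4 met Itga2b in 29 (9.69). Thinned to 500 UMIs, Vwf met Gp1bb in 0 cells (1.24 expected) and Fli1 in 3 (2.50), and Pf4 met Itga2b in 2 (1.47). Cd9 was below 1 with 5 of the 6 other members, as with Gp1bb (3 cells seen, 5.69 expected), and above 1 with Gp9 (26 and 21.8). This did not hold at other depths. Thinned to 500 UMIs, the ratio of Cd9 was 1.11 with Vwf, 1.29 with Pf4 and Gp9, and 1.20 with Fli1. At that depth it was 0.32 with Gp1bb and 0 with Itga2b. Without thinning all 21 pairs of members were above 1, as were 84.1% of all pairs. Without plate 3 the median ratio was 1.02, and without thinning it was 1.36, against 1.19 over all pairs.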

How the data were processed

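Per the labels' protocols, single HSCs were index sorted into wells that held poly(T) primers with well barcodes, and the cDNA of many wells was amplified as 1 pool. The authors deposited UMI counts per gene entry and well (27297 entries, 1536 wells), not normalized, and an index record of 1430 wells. The submitters' processing notes name bcl2fastq 2.15.0.4, Bismark 0.19.0, STAR, cutadapt, DESeq2, featureCounts, mm10 and mm9 without saying what each was used for, and how reads became UMIs was not found in the labels or headers. By its values, the deposited CFP channel is on a log10 scale (whole channel numbers, logged), and the deposited forward scatter area is a linear intensity. The other deposited channels (APC, Alexa Fluor 700, APC-Alexa Fluor 750, scatter width and side scatter) state no scale and were treated as a score. All were used as ranks within a plate. The bulk RNA and bisulphite samples were not analysed here.

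The members, gene lists and comparisons were chosen with earlier results of these data known. Named genes are the 7 members, the 12 list genes with the most UMIs, every called list gene, and the genes most like a member over the map groups, and 1 of them is not reported here. Cells with a record and at least 500 UMIs were kept (all 1430), and doublets were not called, since single cells were sorted. UMIs were summed per plate and fraction (highest 20%, middle and lowest 20% within a plate, in 1 fit), which gave libraries of 76354 to 346469 UMIs. They were tested with edgeR 4.0.16 in R 4.3.3 (filterByExpr on the design, TMM, plate as a block, quasi-likelihood F test, adjusted p threshold 0.05 by Benjamini-Hochberg). Residual and prior degrees of freedom were 6 and 413 for CFP and 6 and 59.7 for APC, so small p-values borrow precision from all genes. The block follows the record, in which the fractions of a plate share that plate. Deviations of the high and low fractions of a plate from their group means correlated across genes, with r from 0.12 to 0.51 for CFP and 0.14 to 0.59 for APC. Fold changes are log2, with SE. The test was tried on simulated counts with known changes. Alternatives were DESeq2 1.42.0, RLE size factors, no filter, no block, 33.3% in place of 20%, cells with at least 1000 UMIs, at most 1 UMI per gene and cell, fractions matched on UMIs per cell, leaving out the most cycling cells or the Pf4-rich cells, and leaving out each plate.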

Additional observations from a re-analysis of the deposited data

Results flagged for a closer look

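In 21 sets of 4 plate values examined for a plate far from the others, 1 stood out, while chance marks about 1 set in 20. It was the APC-high minus APC-low difference of Gp9, which was -0.45 CPM on plate 2 and between 89.6 and 100 CPM on the other 3 plates. In the wells without an index record, which enter no comparison, Vwf had 4 UMIs, above the floor of 3 UMIs that a count of 0 allows. These wells had a median of 224 UMIs, and the labels do not say what they hold.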

How the results depend on the processing

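Vwf kept its direction with APC in each alternative (log2 fold change 1.95 to 3.27) and its call in 12 of 14, with adjusted p-values from 2.1e-09 to 0.11. Without the plate block it was 2.92 with an adjusted p of 0.11, and 0 genes, 0 members and 0 list genes were called, and for CFP 124 genes and 0 list genes. DESeq2 gave Vwf no adjusted p (unadjusted p 1.8e-07), and called 9 genes and 0 list genes with APC and 211 and 0 with CFP. Without the filter, 29 of 13146 tested genes were called with APC, 2 members (Vwf and Gp1bb) and 2 list genes among them. With CFP 389 genes and 1 list gene were called without the filter. Fractions of 33.3% gave 29 genes and 2 list genes with APC. With CFP they gave 340 of 4809 tested genes and 1 member. With at most 1 UMI per gene and cell, 1 gene and 0 list genes were called with APC, and 251 and 0 with CFP. Without the most cycling cells 0 list genes were called with APC, and 6 genes and 0 list genes with CFP, where fewer genes were tested (2983). Matching on UMIs gave 0 list genes with APC, and 34 genes and 0 list genes with CFP, where 1607 were tested. Cells with at least 1000 UMIs gave 0 list genes with APC. Without the Pf4-rich cells 0 list genes were called with APC. With CFP 425 of 4654 tested genes were called without these cells, 1 member, Gp1bb, among them. Leaving out 1 plate gave 5 to 14 genes, 1 member and 0 to 1 list genes with APC, and 257 to 365 genes, 0 to 1 members and 1 to 2 list genes with CFP.

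Some members changed sign. With CFP, Gp9 was -0.060 with fractions of 33.3% and ran from -0.10 (without plate 4) to 0.45 with 1 plate left out and 0.84 when matched on UMIs, Cd9 was 0.0089 with fractions of 33.3% and 0.060 in cells with at least 1000 UMIs, and Pf4 was -0.072 with at most 1 UMI per cell and -0.14 without the Pf4-rich cells. With APC, Pf4 was -0.16 without the most cycling cells. The cause was not tested. Of the levels by map group under the alternatives, 367 moved by less than 1 SD over plates and 11 by more, all 11 with at most 1 UMI per cell. Depth limits the genes with few UMIs, since a gene such as Gp1bb had 3 UMIs in all APC-low cells.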

Other observations

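Itga2b differed along another channel that no comparison above used. In the 20% of cells of a plate with the highest APC-Alexa Fluor 750 value it averaged 105 ± 13 CPM, against 23.3 ± 11.1 CPM in the 20% with the lowest (SD, n = 4 plates, 59 and 8 UMIs), and it was higher in 4 of 4 plates. Vwf averaged 66.6 ± 39.8 CPM in the highest and 135 ± 39 CPM in the lowest 20% of that channel, with 1 of 4 plates higher. Along Alexa Fluor 700, Itga2b averaged 42.6 ± 38.0 CPM in the highest and 121 ± 35 CPM in the lowest 20%, with 0 of 4 plates higher. Both channels were looked at after the values were seen, no test was run, and the antibodies behind them are not given in the sources used here. Such a pattern was not particular to Itga2b. Gp1bb was higher in 4 of 4 plates along forward scatter width and side scatter area, and Pf4 along side scatter area with all cells. Cd9 was higher in 0 of 4 along Alexa Fluor 700. The share over all genes was not computed. The mean APC-Alexa Fluor 750 rank was 66.6% in CFP-bright and 38.4% in CFP-dim cells.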
